A study of Homo sapiens with 12 samples.

Results

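The genes described here encode the machinery that copies DNA and the factors that open S phase, the stage of the cell cycle in which DNA is replicated. The set is a list of 41 genes given by symbol. Of these, 40 were matched to a gene ID of the count files, and all 40 were among the 16999 genes tested, out of 57820 gene IDs in the files. UHRF1 was not analysed here. RNA came from AsPC-1, an established human pancreatic cancer cell line, in 4 groups of 3 libraries (replicates A, B and C). Normoxia siControl received a scrambled siRNA and stayed at 21% O2, and normoxia siARNT received an siRNA against ARNT at the same oxygen level. Hypoxia siControl and hypoxia siARNT received the same siRNAs and spent 24 h at 1% O2. All groups were transfected with a lipid reagent, and RNA was taken 48 h after transfection from wells that had been divided between the oxygen levels. The design text states that silencing ARNT was used to perturb transcription driven by the hypoxia-inducible factors (HIFs). All groups come from 1 cell line, ARNT protein was not measured here, and the labels do not say whether the siRNA was a single sequence or a pool.

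In G1, the origin recognition complex (ORC), CDC6 and CDT1 load rings of the MCM2 to MCM7 helicase onto DNA, a step called licensing. At the G1/S boundary cyclin E, encoded by CCNE1 and CCNE2, activates CDK2, and E2F transcription factors such as E2F1 switch on many genes of this list. CDC45 and the GINS complex then join the helicase, which opens with the help of MCM10. Primase and DNA polymerase alpha start each new strand, and polymerases delta and epsilon extend it. PCNA is the sliding clamp that holds these polymerases on DNA, RFC subunits load the clamp, FEN1 and LIG1 join the pieces of the lagging strand, RPA2 belongs to the complex that coats single-stranded DNA, RRM1, RRM2 and TYMS make DNA precursors, and CHAF1A and CHAF1B place histones on new DNA. ARNT pairs with HIF alpha subunits, and with the aryl hydrocarbon receptor, to bind DNA.

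Promoter sequence was read for 34 of the 40 genes from a RefSeq table (GRCh38.p14) that gives 300 bases a start site, 250 before it and 50 after. At least 1 of the E2F words TTTCCCGC, TTTCGCGC, TTTGCCGC and TTTGGCGC was present on either strand in 18 of the 34 genes (52.9%), against 4.0% of 27305 genes in the table. Stretches of 60 bases are printed for 3 genes whose RNA was lower in hypoxia (MCM6, RFC3 and PCNA) and for 3 that did not pass the test there (LIG1, CDT1 and E2F1). They are written 5′ to 3′ along the strand of the gene, and capitals mark the E2F words of either strand, which overlap in MCM6.
MCM6 (chr2:135876562-135876621, minus strand): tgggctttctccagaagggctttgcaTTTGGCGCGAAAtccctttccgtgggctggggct
RFC3 (chr13:33818068-33818127, plus strand): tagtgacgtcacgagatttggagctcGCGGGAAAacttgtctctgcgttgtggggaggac
PCNA (chr20:5126648-5126707, minus strand): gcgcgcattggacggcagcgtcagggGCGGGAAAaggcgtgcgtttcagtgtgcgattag
LIG1 (chr19:48170425-48170484, minus strand): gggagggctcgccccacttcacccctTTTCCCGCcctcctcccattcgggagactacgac
CDT1 (chr16:88803728-88803787, plus strand): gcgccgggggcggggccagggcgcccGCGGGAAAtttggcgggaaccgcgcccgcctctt
E2F1 (chr20:33686385-33686444, minus strand): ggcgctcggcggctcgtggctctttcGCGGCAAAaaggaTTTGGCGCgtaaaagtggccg
All 6 were chosen for holding such a word. Of them, E2F1 was called lower in hypoxia once the GC trend of each library was taken out, as described below. The median log2 fold change for hypoxia with siControl was -0.68 over the 18 genes with an E2F word and -0.64 over the 16 without. The word TTTGAA, the core of the cell cycle homology region found in promoters of genes of late cell cycle stages, was present in 1 of the 34 genes (2.9%), in 20 of 26 mitosis and G2/M genes (76.9%) and in 18.2% of all genes. The core of the hypoxia response element, ACGTG or GCGTG on either strand, was present in 25 of the 34 genes (73.5%), in 73.1% of the mitosis and G2/M genes and in 52.4% of all genes. The CCAAT box was present in 55.9%, 80.8% and 39.7% of these sets. These are matches of letters in a short window and say nothing of binding.

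The libraries held 38.53 to 84.34 M gene counts each. ARNT was measured at 60.7, 63.6 and 63 CPM in normoxia siControl, 70.3, 64.9 and 72.2 in hypoxia siControl, 13.3, 12.8 and 14 in normoxia siARNT, and 16, 15.8 and 14.1 in hypoxia siARNT, so each library labelled siARNT lay below each library labelled siControl. CA9 and EGLN3, which are known HIF targets, rose in hypoxia with siControl by 3.27 and 3.29 on the log2 scale. With siARNT the hypoxia change was 0.71 ± 0.08 for EGLN3, called at an adjusted p of 0.0018, and 0.24 ± 0.16 for CA9, which did not pass (adjusted p = 0.414). CA9 was measured at 11.3, 12.8 and 12.0 CPM in normoxia siControl and 20.3, 28.6 and 18.3 in normoxia siARNT, so its change with siARNT started from a higher level. All 6 epithelial markers measured (EPCAM, KRT8, KRT18, KRT19, CDH1 and CLDN4) were expressed. Among markers of other cells, CD3E was at 0 in all 12 libraries, COL1A1, COL1A2, DCN, PDGFRB, PTPRC, VWF and CDH5 were under 1 CPM in each library, and LYZ was measured at 229, 213 and 213 CPM in normoxia siControl, 209, 219 and 184 in hypoxia siControl, 180.0, 163 and 188 in normoxia siARNT, and 158, 145 and 130.0 in hypoxia siARNT. LYZ was called lower with siARNT in hypoxia (-0.50 on the log2 scale) and in normoxia (-0.30, adjusted p = 0.0336). The normoxia call ended without normoxia siARNT B (-0.26, adjusted p = 0.0949). The part of LYZ in the results was not tested. Libraries differed in how counts depended on the GC content of a transcript. The slope of log2 CPM on GC content, relative to the mean library, ran from -0.205 to 0.424 per 10 percentage points of GC, and normoxia siARNT B (0.424), hypoxia siARNT C (0.238) and hypoxia siControl B (0.12) had the highest slopes in their groups. These 3 libraries stand apart for genes rich in GC.

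**Figure D1:**
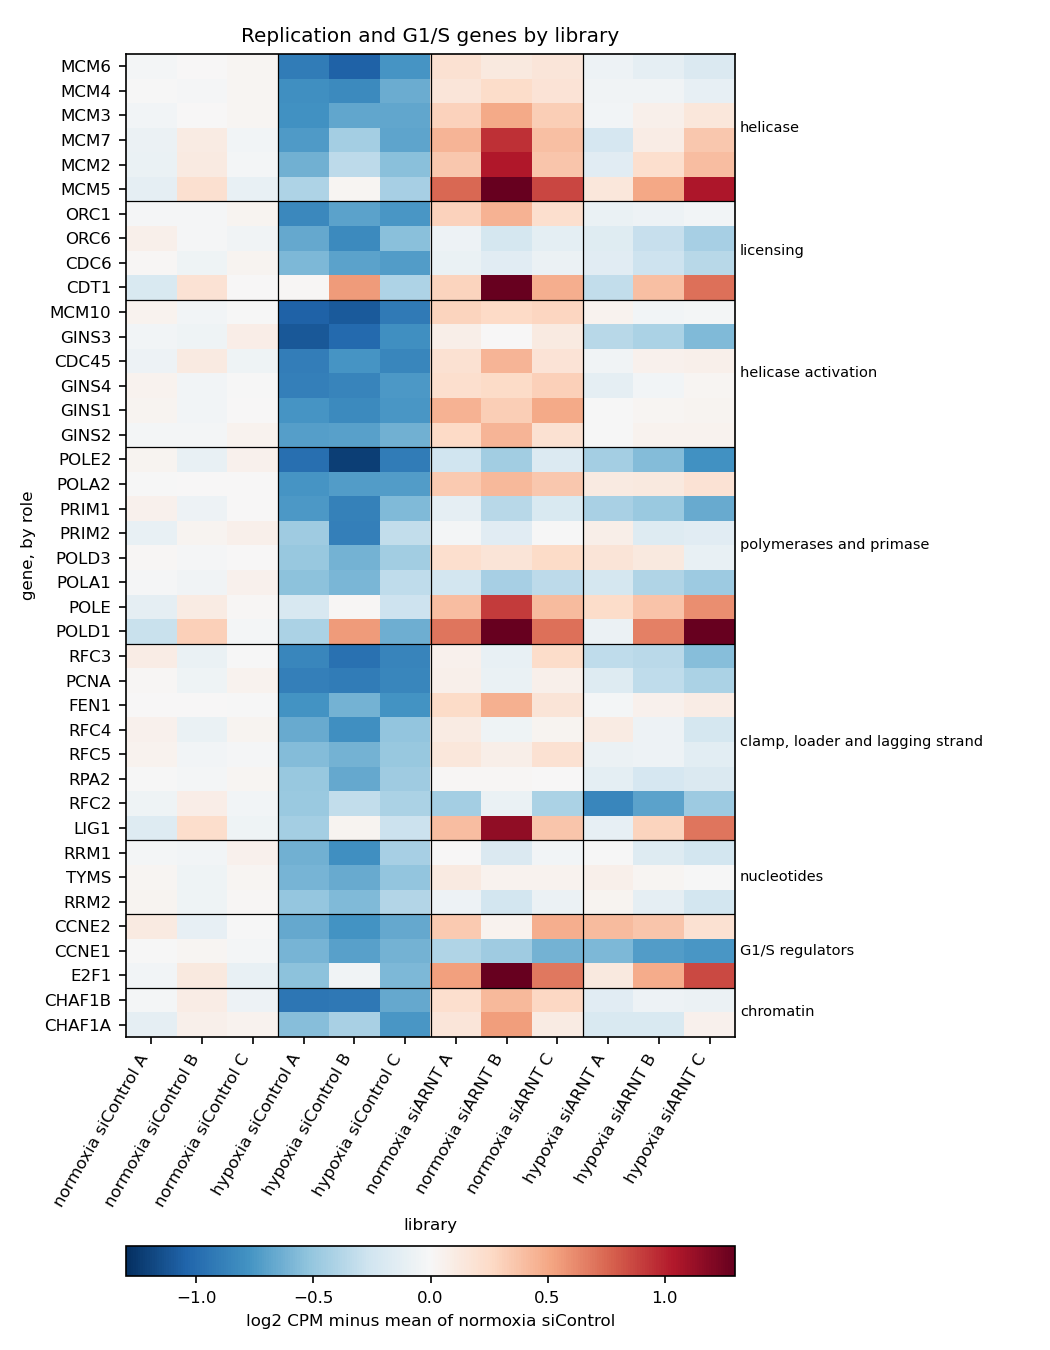
Level of the 40 genes in each of the 12 libraries, drawn as log2 CPM (counts per M with TMM scaling) minus the mean of the 3 normoxia siControl libraries, with genes in rows by role and libraries in columns; colours saturate at the ends of the scale. The hypoxia siControl columns are blue for most genes, with medians of -0.66, -0.69 and -0.62 over the 40 genes, and the hypoxia siARNT columns lie near the normoxia siControl level, with medians of -0.08, -0.06 and -0.06.

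Levels between genes were compared per length of exon, as CPM, the counts per M gene counts, divided by the kilobases of exon (RPKM; mean ± SD, n = 3). In normoxia siControl the highest level was that of PCNA, at 136 ± 5.24. RRM1 (51.7 ± 1.91) and RRM2 (50.5 ± 1.60), the subunits of ribonucleotide reductase, came next and did not differ beyond their spread. MCM6 followed at 44.1 ± 0.765 and TYMS, which makes thymidylate, at 34.4 ± 1.19. The subunits of the MCM2 to MCM7 ring, which stand in it in equal number, had unequal RNA levels. MCM3 stood at 29.4 ± 0.645, MCM7 at 26.5 ± 1.76, MCM4 at 26 ± 0.341, MCM2 at 6.89 ± 0.507 and MCM5 at 1.75 ± 0.227 RPKM. MCM7 and MCM4 did not differ beyond their spread. The length used counts every annotated exon base of a gene, which can exceed the length of the RNA made. MCM4 and MCM6 had mean levels of 181 and 182 CPM but lengths of 6973 and 4118 bases, so the order depends on this length. The GC content of the longest transcript was 43.1% for MCM6, 51.6% for MCM3, 57.6% for MCM7, 48.5% for MCM4, 58.1% for MCM2 and 57.0% for MCM5. CDT1 (0.546 ± 0.0706) and POLD1 (0.720 ± 0.149), the catalytic subunit of polymerase delta, were the lowest of the 40 genes, and both are rich in GC, at 64.9% and 65.0%.

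The first comparison was hypoxia against normoxia in cells with scrambled siRNA. Of the 40 genes, 33 were called lower in hypoxia, none higher, and 7 did not pass the test (MCM2, MCM5, CDT1, POLD1, POLE, LIG1 and E2F1). Calling a gene required an adjusted p under 0.05 in edgeR's quasi-likelihood test, with adjustment over all 16999 genes, of which 14.9% were called lower. The median log2 fold change was -0.66 over the 40 genes and 0.02 over all genes tested, and 39 of the 40 were below 0. In 34 of the 40 every hypoxia library lay below every normoxia library, against 25.3% of all genes. In bulk RNA, fewer cells in S phase and less RNA of these genes in each cell cannot be told apart. Leaving out any 1 library of this comparison left 31 to 33 of the genes called. With the replicate letter as a block 34 were called, the gain being MCM2 (adjusted p = 0.0743 without the block and 0.0193 with it). The 7 genes that did not pass have a GC content of 55.6 to 65.0%. When the GC trend of each library was taken out (the GC correction), 36 were called lower, where 18.9% of all genes were. Among them were MCM2 (-0.59, adjusted p = 2.98e-06), POLE (-0.18, adjusted p = 0.022) and E2F1, while MCM5, CDT1, POLD1 and LIG1 did not pass.

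Among the helicase subunits, 4 of 6 were called lower in hypoxia. MCM6 was measured at 178, 182 and 185 CPM in normoxia siControl, 96.7, 87.7 and 107 in hypoxia siControl, 208, 199 and 202 in normoxia siARNT, and 173, 168 and 160.0 in hypoxia siARNT. Its hypoxia libraries with siControl lay below all 9 others, and the log2 fold change with siControl was -0.90 ± 0.07 (adjusted p = 4.42e-06), a 1.87-fold fall. MCM4 was measured at 180.0, 179 and 184 CPM in normoxia siControl, 104, 102 and 116 in hypoxia siControl, 202, 214 and 204 in normoxia siARNT, and 175, 175 and 168 in hypoxia siARNT, and it changed by -0.75 ± 0.06 (adjusted p = 4.92e-06). In MCM4, as in MCM6, the 3 hypoxia siControl libraries were the lowest of the 12. MCM3 and MCM7 changed by -0.71 ± 0.07 and -0.62 ± 0.17. MCM2 and MCM5 did not pass the test, with -0.50 ± 0.19 (adjusted p = 0.0743) and -0.26 ± 0.28 (adjusted p = 0.548). For MCM5, the libraries stood at 11.8, 14.8 and 12 CPM in normoxia siControl, 9.70, 13 and 9.51 in hypoxia siControl, 21.4, 42.5 and 23.4 in normoxia siARNT, and 14.2, 18.1 and 26.5 in hypoxia siARNT. Library B was the highest of each of the first 3 of these groups, and the normoxia and hypoxia siControl libraries overlapped. The call of MCM7 was lost without normoxia siControl B, hypoxia siControl A or hypoxia siControl C and with no filter on low counts (highest adjusted p = 0.0748).

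Of the licensing factors, ORC1, ORC6 and CDC6 were called lower and CDT1 was not. ORC1, the largest subunit of the origin recognition complex, was measured at 15, 15 and 15.6 CPM in normoxia siControl, 8.52, 9.37 and 8.99 in hypoxia siControl, 18.7, 20.8 and 17.7 in normoxia siARNT, and 14.3, 14.5 and 14.8 in hypoxia siARNT. Hypoxia with siControl gave the lowest 3 values, and the change was -0.76 ± 0.08 (adjusted p = 5.06e-05). CDC6, which works with ORC to load the helicase, was measured at 69.1, 65.9 and 70.1 CPM in normoxia siControl, 45.6, 42.3 and 41.2 in hypoxia siControl, 64.2, 61.9 and 64.8 in normoxia siARNT, and 61.6, 56.7 and 53.2 in hypoxia siARNT, a change of -0.67 ± 0.07 (adjusted p = 2.79e-05). ORC6 changed by -0.67 ± 0.09 (adjusted p = 0.000242). CDT1, the partner of CDC6 in loading, stood at 1.58, 2.06 and 1.82 CPM in normoxia siControl, 1.83, 2.66 and 1.37 in hypoxia siControl, 2.21, 4.60 and 2.51 in normoxia siARNT, and 1.45, 2.37 and 2.97 in hypoxia siARNT. Its groups overlapped and the change of 0.11 ± 0.34 (adjusted p = 0.853) did not pass, with an interval of 2 SE from -0.57 to 0.79. Without hypoxia siControl B the estimate for CDT1 was -0.15, and with the GC correction it was -0.16.

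All 6 factors of helicase activation were called lower, with a median log2 fold change of -0.83, the lowest of the 8 roles. MCM10, which helps CDC45 and GINS to open the helicase, was measured at 46.2, 43.7 and 44.8 CPM in normoxia siControl, 21.7, 21.1 and 23.7 in hypoxia siControl, 54.7, 53.8 and 54.5 in normoxia siARNT, and 46.2, 43.7 and 44.1 in hypoxia siARNT. The hypoxia siControl libraries were again the lowest of the 12, and the change was -1.02 ± 0.06 (adjusted p = 6.09e-07), a 2.03-fold fall. GINS3, a subunit of GINS, stood at 7.56, 7.46 and 8.19 CPM in normoxia siControl, 3.61, 3.85 and 4.44 in hypoxia siControl, 8.14, 7.75 and 8.36 in normoxia siARNT, and 6.01, 5.83 and 5.21 in hypoxia siARNT, a change of -0.97 ± 0.11 (adjusted p = 6.2e-05). CDC45 changed by -0.84 ± 0.09, GINS4 by -0.83 ± 0.07, GINS1 by -0.78 ± 0.06 and GINS2 by -0.68 ± 0.08. The SEs of these 6 genes ran from 0.06 to 0.11.

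Of the polymerase and primase genes, 6 of 8 were called lower. POLE2, an accessory subunit of polymerase epsilon, was measured at 21.2, 19.3 and 21.5 CPM in normoxia siControl, 10.5, 8.83 and 11 in hypoxia siControl, 17.3, 15.1 and 18.3 in normoxia siARNT, and 15.2, 14 and 12 in hypoxia siARNT. Its change of -1.03 ± 0.12 (adjusted p = 7.62e-05) was the most negative of the 40 genes. POLA2, a subunit of polymerase alpha, stood at 39.1, 39.6 and 39.4 CPM in normoxia siControl, 23.1, 23.8 and 23.8 in hypoxia siControl, 49.8, 52.8 and 50.1 in normoxia siARNT, and 42.6, 43 and 44.8 in hypoxia siARNT, and its groups with siControl were apart by -0.74 ± 0.05 (adjusted p = 3.29e-06). POLE, the catalytic subunit that POLE2 accompanies, did not pass the test, with -0.15 ± 0.14 (adjusted p = 0.488). With the GC correction POLE was called lower, at -0.18 (adjusted p = 0.022). PRIM1 and PRIM2, the primase subunits, changed by -0.73 ± 0.09 and -0.54 ± 0.13, and POLD3 and POLA1 by -0.52 ± 0.07 and -0.48 ± 0.09. POLD1 was measured at 2.87, 4.33 and 3.45 CPM in normoxia siControl and 2.64, 5.13 and 2.25 in hypoxia siControl, and its change of -0.09 ± 0.46 (adjusted p = 0.915) did not pass. Leaving out 1 library moved that estimate between -0.51 and 0.12.

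Of the clamp, loader and lagging strand genes, 7 of 8 were called lower. PCNA was measured at 202, 192 and 207 CPM in normoxia siControl, 108, 107 and 111 in hypoxia siControl, 209, 188 and 209 in normoxia siARNT, and 178, 159 and 151 in hypoxia siARNT. The hypoxia siControl libraries were the lowest of the 12, and PCNA changed by -0.88 ± 0.07 (adjusted p = 5.74e-06), a 1.84-fold fall. RFC3, a clamp loader subunit, stood at 48.4, 42.5 and 44.9 CPM in normoxia siControl, 25.1, 23 and 24.9 in hypoxia siControl, 47.1, 42.3 and 53.3 in normoxia siARNT, and 35.9, 35.4 and 30.8 in hypoxia siARNT, a change of -0.90 ± 0.09 (adjusted p = 4.47e-05). FEN1, RFC4, RFC5, RPA2 and RFC2 changed by -0.72, -0.65, -0.56, -0.54 and -0.40. RFC2 lost its call without normoxia siControl B or C or hypoxia siControl A (highest adjusted p = 0.0754). LIG1, the ligase of the lagging strand, did not pass, with -0.22 ± 0.24 (adjusted p = 0.56). PCNA, RPA2, RFC3, RFC5 and FEN1, like RRM2 and TYMS of the next group, have annotated pseudogenes, whose reads the counting could have shared.

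The 3 genes of DNA precursors were all called lower. RRM1 was measured at 212, 211 and 225 CPM in normoxia siControl, 140.0, 124 and 160.0 in hypoxia siControl, 216, 190.0 and 211 in normoxia siARNT, and 215, 192 and 183 in hypoxia siARNT, a change of -0.61 ± 0.09 (adjusted p = 0.000638). TYMS stood at 86.5, 81.5 and 86.6 CPM in normoxia siControl, 55.8, 53.8 and 59.6 in hypoxia siControl, 91.8, 87.7 and 87.7 in normoxia siARNT, and 88.9, 86.3 and 84.7 in hypoxia siARNT, a change of -0.59 ± 0.06 (adjusted p = 2.19e-05), and RRM2 changed by -0.49 ± 0.08 (adjusted p = 0.000906). For all 3, the hypoxia siControl libraries were below each of the other 9. Of the exon bases of TYMS, 39.1% overlap ENOSF1 on the opposite strand. The libraries were stranded per the labels' protocols, but whether the counting used strand is not given in the sources used here, so TYMS is uncertain, as is CCNE2, which overlaps INTS8 over 37.0% of its exon bases. POLA2 (35.1% with AP000944.2), RRM2 (20.2% with AC007240.1) and PRIM1 (14.9% with AC117378.1) share exon bases with a gene on the same strand. MCM2 (22.7%) and GINS4 (21.2%) share bases with an antisense gene.

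Both cyclin E genes were called lower. CCNE2 was measured at 37.3, 32 and 34.4 CPM in normoxia siControl, 21.7, 20.2 and 21.8 in hypoxia siControl, 43.7, 35.7 and 47.7 in normoxia siARNT, and 46, 44.4 and 39.7 in hypoxia siARNT, a change of -0.71 ± 0.10 (adjusted p = 0.00047). The hypoxia siControl libraries were the lowest and the hypoxia siARNT libraries among the highest. CCNE1 stood at 19.7, 20.1 and 19.4 CPM in normoxia siControl, 13, 12.1 and 12.9 in hypoxia siControl, 15, 14.3 and 12.9 in normoxia siARNT, and 13.2, 11.9 and 11.7 in hypoxia siARNT, a change of -0.64 ± 0.08 (adjusted p = 0.0002). Unlike CCNE2, its level with siARNT was below that of normoxia siControl at both oxygen levels. E2F1 was measured at 14.7, 16.4 and 14.1 CPM in normoxia siControl, 10.4, 14.6 and 10.0 in hypoxia siControl, 21.8, 37 and 24.1 in normoxia siARNT, and 16.4, 21 and 27.2 in hypoxia siARNT. Its siControl groups overlapped, and the change of -0.37 ± 0.23 (adjusted p = 0.281) did not pass the test. With the GC correction E2F1 was called lower. CHAF1B and CHAF1A, the histone chaperone subunits, were called lower, by -0.84 ± 0.10 (adjusted p = 8.89e-05) and -0.57 ± 0.13 (adjusted p = 0.00697). CHAF1B was measured at 15.3, 16.7 and 14.9 CPM in normoxia siControl and 8.16, 8.21 and 9.87 in hypoxia siControl, with no overlap.

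**Figure D2:**
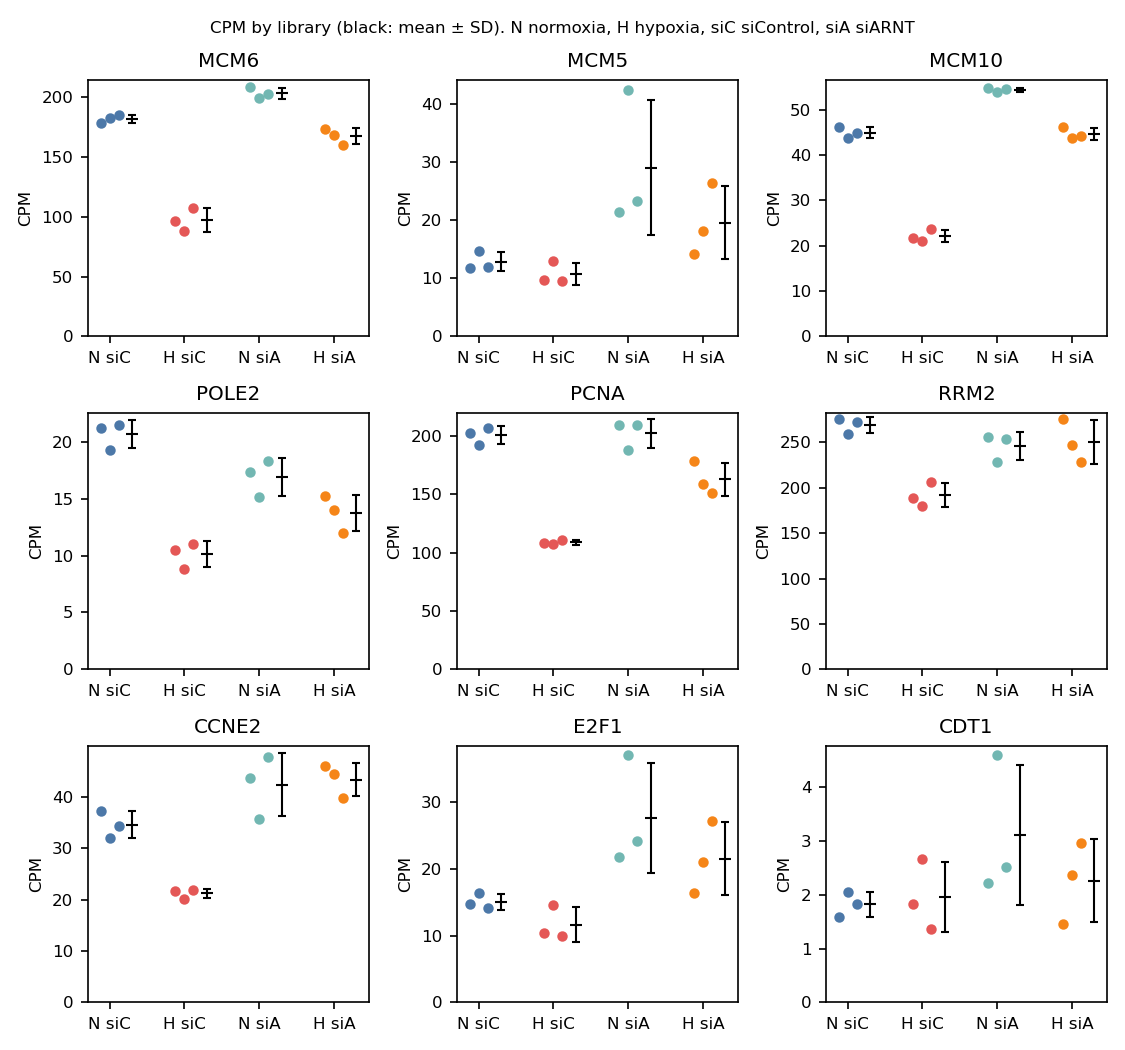
CPM of 9 genes in every library, by group on the horizontal axis; coloured points are libraries A, B and C from left to right and black marks are the mean ± SD. For MCM6, MCM10, PCNA, RRM2 and CCNE2 the 3 hypoxia siControl libraries lie below the other groups, whereas for MCM5, E2F1 and CDT1 1 library of normoxia siARNT, replicate B, lies highest.

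The same oxygen comparison in cells with siARNT gave 13 genes called lower and none higher, where 1.89% of all genes were called lower and 4.09% were called in either direction. The median log2 fold change of the 40 genes was -0.28, with -0.04 over all genes tested. In 22 of the 40 every hypoxia library lay below every normoxia library, against 10.7% of all genes. The 13 were MCM3, MCM4, MCM6, ORC1, MCM10, GINS1, GINS3, GINS4, POLA2, PCNA, RFC3, RFC5 and CHAF1B, and all of them were also called lower with siControl. GINS3 changed by -0.51 ± 0.10 (adjusted p = 0.0248) and RFC3 by -0.48 ± 0.09 (adjusted p = 0.0198). No gene of DNA precursors or of G1/S regulation was called. RRM2 changed by 0.02 ± 0.08 (adjusted p = 0.883), with a 2 SE interval from -0.13 to 0.18, and CCNE2 by 0.03 ± 0.10 (adjusted p = 0.879), with an interval from -0.17 to 0.24.

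None of the 13 calls with siARNT held under every alternative. Without any 1 library of the comparison 1 to 6 genes were called, with 6 without normoxia siARNT B or hypoxia siARNT C and 1 without normoxia siARNT A or hypoxia siARNT B. Fitting only these 2 groups called 0 (19 at an unadjusted p under 0.05, and 15 with DESeq2 on all libraries), no filter on low counts called 6, and the GC correction called 27 while ending the call of POLA2 (-0.15, adjusted p = 0.0638). The wells were divided between the oxygen levels, and a block by well, taking the letters as wells, called 1 of the 40 genes (GINS1) lower, where 0.424% of all genes were called lower. Among the 12 calls that this block ended, the adjusted p of MCM10 went from 0.0249 to 0.08 and that of RFC3 from 0.0198 to 0.0666. Between these 2 groups, deviations from group means were correlated at 0.91, -0.12 and -0.85 for libraries A, B and C. Normoxia siARNT B and hypoxia siARNT C, of unlike letters, were correlated at 0.93. Whether letters mark the wells here is not known, so this block may be wrongly set. The direction of the 13 was negative under each alternative.

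The difference between the oxygen changes, siARNT minus siControl, was tested as an interaction. It was called above 0 for 20 of the 40 genes and below 0 for none, against 2.49% and 2.19% of all genes (4.69% in either direction), and its median was 0.44, with -0.02 over all genes tested. The hypoxia estimate was less negative with siARNT for 35 of the 40 genes. Over the 33 genes called with siControl, the change with siARNT was a median of 34.3% of the change with siControl, from -5.0% for RRM2 to 89.4% for RFC2. These genes were selected by their change with siControl, which by itself favours a small share. For the 7 not called, the share was 88.7% for MCM2, 98.1% for E2F1, 117.4% for POLE and 161.1% for LIG1. It was 219.9% for MCM5, 618.1% for POLD1 and -432.2% for CDT1. MCM10 had the interaction with the lowest adjusted p, 0.74 ± 0.08 (adjusted p = 0.000478), as it changed by -1.02 with siControl and by -0.28 with siARNT. The same pair of values was -0.71 and 0.03 for CCNE2, whose difference was 0.74 ± 0.15 (adjusted p = 0.0172). For POLE2 it was -1.03 and -0.30, a difference of 0.73 ± 0.16 (adjusted p = 0.028). All 3 precursor genes were called, with 0.55 ± 0.08 (adjusted p = 0.00286) for TYMS, 0.55 ± 0.13 (adjusted p = 0.0399) for RRM1 and 0.51 ± 0.11 (adjusted p = 0.0274) for RRM2. By role, 4 of 6 helicase activation genes, 5 of 8 clamp, loader and lagging strand genes, 3 of 6 helicase subunits, 2 of 4 licensing factors, 2 of 8 polymerase and primase genes and 1 of 3 G1/S regulators were called.

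The 5 genes with an interaction below 0 were CDT1 (-0.57 ± 0.47), POLD1 (-0.45 ± 0.64), MCM5 (-0.31 ± 0.39), LIG1 (-0.14 ± 0.34) and POLE (-0.03 ± 0.20), and none passed the test. These have a GC content of 55.6 to 65.0%, above the median of the 40 genes of 48.3%. The count called depended on the libraries. Leaving out any 1 library of the 12 gave 7 to 25, with 25 without hypoxia siControl C, 23 without hypoxia siARNT C, 17 without normoxia siARNT B and 7 without normoxia siControl A or C. Without normoxia siControl B it was 9, without hypoxia siControl A 8, without hypoxia siControl B 10, without normoxia siARNT A 10, without normoxia siARNT C or hypoxia siARNT A 12, and without hypoxia siARNT B 8. The well as a block, and the lack of a filter on low counts, each gave 12. MCM10, MCM6, MCM4, CDC6, PCNA, POLA2 and TYMS kept the call under every alternative. Without hypoxia siControl B, CCNE2 (0.70, adjusted p = 0.0538), POLE2 (0.65, adjusted p = 0.0667), RRM1 (0.46, adjusted p = 0.0775) and RRM2 (0.47, adjusted p = 0.0653) no longer passed, and the call of RRM1 also ended without normoxia siARNT B (0.51, adjusted p = 0.0575). These calls did not hinge on those libraries alone. Each also ended without normoxia siControl A, normoxia siControl C or hypoxia siARNT B. The call of RRM1 held only when hypoxia siControl C or hypoxia siARNT C was the library left out, and it ended with RLE scaling. Highest adjusted p-values over the alternatives were 0.0625 for CCNE2, 0.0933 for POLE2, 0.124 for RRM1 and 0.0835 for RRM2. With the GC correction the interaction of GINS1 was 0.19 (adjusted p = 0.203) and that of RFC5 0.16 (adjusted p = 0.147), and both calls ended.

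**Figure D3:**
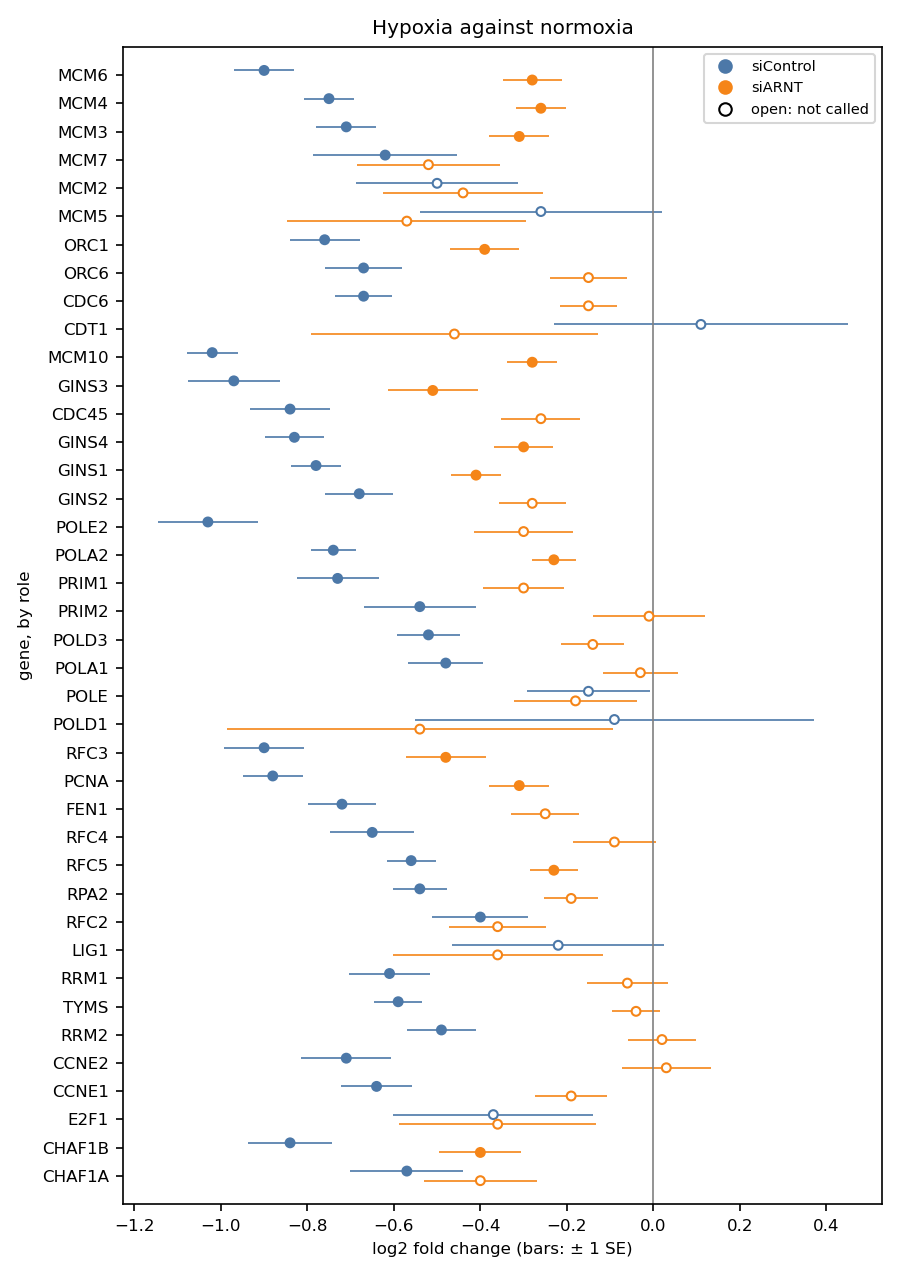
Log2 fold change of hypoxia against normoxia for each of the 40 genes, with siControl in blue and siARNT in orange; bars are 1 SE, filled points are called at an adjusted p under 0.05 and open points are not. For 35 of the 40 genes the orange point lies to the right of the blue one, and the exceptions, CDT1, POLD1, MCM5, LIG1 and POLE, are open in both.

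The siRNAs were then compared at 21% O2. With siARNT 15 of the 40 genes were called higher, where 9.42% of all genes were, and 2 lower, where 10.8% were, and the median log2 fold change was 0.23, against 0.01 over all genes tested. The 2 lower genes were CCNE1, at -0.49 ± 0.08 (adjusted p = 0.00196), and POLA1, the catalytic subunit of polymerase alpha, at -0.33 ± 0.09 (adjusted p = 0.0213). POLA1 was measured at 44.2, 43.3 and 46.5 CPM in normoxia siControl and 37.9, 33.2 and 35.3 in normoxia siARNT, and the groups did not overlap. The call of POLA1 ended with the GC correction (-0.14, adjusted p = 0.0541), without normoxia siARNT B (-0.30, adjusted p = 0.0592) and without normoxia siControl A or C. Of the helicase subunits, 5 of 6 were called higher, with MCM5 at 1.18 ± 0.28 (adjusted p = 0.0142) and MCM2 at 0.62 ± 0.19 (adjusted p = 0.0383). GINS1 was measured at 41.7, 39.7 and 40.7 CPM in normoxia siControl and 55.7, 50.9 and 57.1 in normoxia siARNT and was higher by 0.42 ± 0.06 (adjusted p = 0.000556). MCM10 was higher by 0.27 ± 0.06 (adjusted p = 0.00742), POLA2 by 0.37 ± 0.05 (adjusted p = 0.000617) and E2F1 by 0.87 ± 0.23 (adjusted p = 0.0228). PCNA changed by 0.01 ± 0.07 (adjusted p = 0.905), with a 2 SE interval from -0.12 to 0.15, and no gene of DNA precursors was called.

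The larger estimates in normoxia rested in part on 1 library. Without normoxia siARNT B, MCM5 was higher by 0.80, which still passed, while E2F1 (0.60, adjusted p = 0.06), MCM2 (0.35, adjusted p = 0.107) and MCM7 (0.40, adjusted p = 0.0678) no longer did. The calls of MCM4, ORC1, GINS2, FEN1, CHAF1B and POLA1 also ended without it, and POLE moved from 0.59 to 0.39 and kept its call. Without that library 10 genes were called, without normoxia siControl A, B or C 5, 10 and 4, and without filtering of low counts 9. The calls of MCM5 and POLE ended without normoxia siControl A or C, and that of MCM5 also with no filter on low counts. Their highest adjusted p over the alternatives was 0.0643 for MCM5 and 0.0715 for POLE. CCNE1, GINS1, MCM3 and POLA2 kept the call under every alternative. With the replicate letter as a block 22 were called, adding CDC45, POLD1, LIG1 and CCNE2 as higher and RFC2 as lower, with adjusted p-values of 0.0238, 0.03, 0.0256, 0.0378 and 0.0309. All 15 genes called higher at 21% O2 were also called higher with siARNT at 1% O2.

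At 1% O2 the libraries with siARNT stood above those with siControl for most of the list. Of the 40 genes, 33 were called higher and none lower, against 14.4% and 14.7% of all genes. The median log2 fold change was 0.59, with 0.02 over all genes tested. Comparisons of hypoxia with siControl use the same hypoxia siControl libraries, so these counts are not independent of the falls given above. CCNE2 was higher by 1.03 ± 0.10 (adjusted p = 2.18e-05), a 2.04-fold rise, and MCM10 by 1.01 ± 0.06 (adjusted p = 3.05e-07). POLA2 was higher by 0.88 ± 0.05 (adjusted p = 3.46e-07), CDC45 by 0.86 ± 0.09 (adjusted p = 3.52e-05), MCM5 by 0.87 ± 0.28 (adjusted p = 0.0371), E2F1 by 0.88 ± 0.23 (adjusted p = 0.0142) and MCM6 by 0.78 ± 0.07 (adjusted p = 6.97e-06). All 6 helicase subunits, all 6 helicase activation genes, all 3 precursor genes and both chaperone subunits were called. Without hypoxia siARNT C, MCM5 (0.59, adjusted p = 0.145), E2F1 (0.68, adjusted p = 0.0553), MCM2 (0.55, adjusted p = 0.0687) and CHAF1A (0.37, adjusted p = 0.0754) no longer passed. The same 4 calls ended without hypoxia siControl A and without hypoxia siControl C, and those of MCM2 and MCM5 also without hypoxia siARNT B. With no filter on low counts MCM2, MCM5 and E2F1 were not called. POLE2 and PRIM2 lost the call without hypoxia siARNT A, and POLE2 also without hypoxia siControl B (0.34, adjusted p = 0.0648). PRIM2 kept it there at 0.30, from 0.47, and lost it in a fit of only the groups compared.

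The 7 genes not called at 1% O2 were CCNE1, CDT1, LIG1, POLA1, POLD1, PRIM1 and RFC2. CCNE1 changed by -0.05 ± 0.08 (adjusted p = 0.709), POLA1 by 0.12 ± 0.09 (adjusted p = 0.337), PRIM1 by 0.21 ± 0.10 (adjusted p = 0.119) and RFC2 by -0.26 ± 0.11 (adjusted p = 0.103). The estimate for POLD1, 0.83 ± 0.46 (adjusted p = 0.208), was wide, with a 2 SE interval from -0.09 to 1.75. LIG1 passed with the replicate letter as a block (adjusted p = 0.0442) and not without it (0.124). Leaving out any 1 library of this comparison left 29 to 32 genes called.

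**Figure D4:**
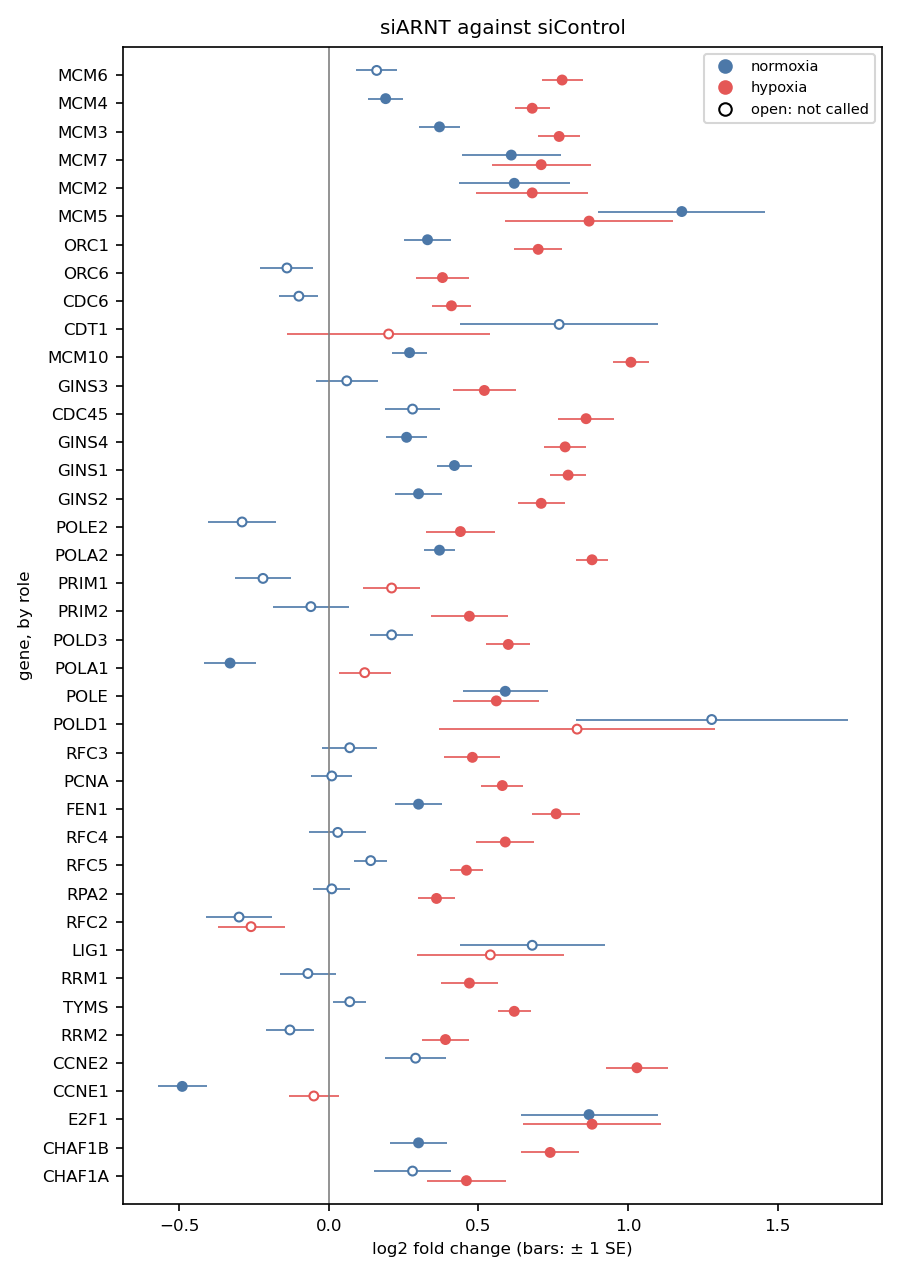
Log2 fold change of siARNT against siControl for each of the 40 genes, in normoxia in blue and in hypoxia in red; bars are 1 SE, filled points are called and open points are not. The hypoxia points lie to the right of 0 for 38 of the 40 genes, and the normoxia points for 30, with CCNE1 and POLA1 called below 0, POLA1 not with the GC correction.

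Base composition moved with several of these changes. Over the 40 genes, the Spearman correlation of GC content with the log2 fold change was 0.50 for hypoxia with siControl, -0.43 for hypoxia with siARNT, 0.60 for siARNT in normoxia, 0.14 for siARNT in hypoxia and -0.61 for the interaction. These describe genes of the same libraries, which are not independent points. When the GC trend of each library was taken out of the counts, the values were 0.30, 0.14, 0.10, 0.05 and -0.15. The medians over the 40 genes were then -0.61, -0.25, 0.29, 0.60 and 0.34 in the same order. E2F1 moved from 0.87 to 0.34 for siARNT in normoxia and from -0.37 to -0.57 for hypoxia with siControl. POLD1 moved from 1.28 to 0.56 for siARNT in normoxia and CDT1 from 0.77 to 0.09, and MCM5 from 1.18 to 0.92. With the correction more of all genes were called too. For hypoxia with siControl 36 genes of the list were called lower, where 18.9% of all genes were, and with siARNT 27, where 12.6% were. For siARNT in normoxia 27 were called higher and 2 lower (21.4% and 10.5% of all genes). For siARNT in hypoxia 36 were called higher and 1 lower (23.1% and 21.6%). The interaction was called above 0 for 27 (5.81%).

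**Figure D5:**
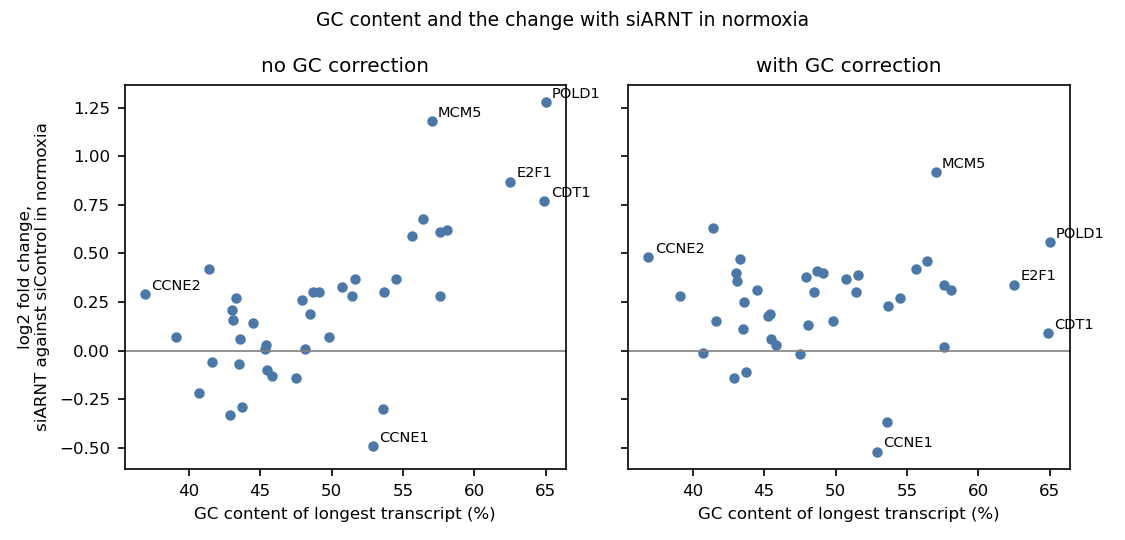
Log2 fold change of siARNT against siControl in normoxia for the 40 genes on the vertical axis against the GC content (%) of the longest transcript on the horizontal axis, without the GC correction on the left and with it on the right. The Spearman correlation is 0.60 on the left and 0.10 on the right, and MCM5 lies highest after the correction, at 0.92.

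Further genes of replication, not on the list, were counted for comparison. Of 45 tested, 34 were called lower and none higher in hypoxia with siControl, against 14.9% and 10.4% of all genes. The median log2 fold change was -0.44. With siARNT 2 were called lower in hypoxia, against 1.89% of all genes. The interaction was called above 0 for 11 and below for none, against 2.49% and 2.19% of all genes. CLSPN, which encodes the replication checkpoint protein claspin, was measured at 38.4, 36.4 and 40.2 CPM in normoxia siControl, 16.8, 16.7 and 17.7 in hypoxia siControl, 49, 41.3 and 49.4 in normoxia siARNT, and 46.5, 41 and 34.9 in hypoxia siARNT. Its hypoxia siControl libraries were the lowest of the 12, with a change of -1.17 ± 0.10 (adjusted p = 1.41e-05) and an interaction of 0.98 ± 0.14 (adjusted p = 0.00345). DSCC1, a subunit of an alternative clamp loader, changed by -1.10 ± 0.11 (adjusted p = 3.66e-05), and TIPIN, a fork protection factor, by -0.99 ± 0.13 (adjusted p = 0.000195). In siARNT against siControl, 26 were called higher and 1 lower in hypoxia, against 14.4% and 14.7% of all genes. The median was 0.38. In normoxia 4 were called higher and 3 lower, against 9.42% and 10.8%, with a median of -0.01. Among the 4 were RECQL4 (1.58) and CHTF18 (1.28). Their calls ended without normoxia siARNT B (0.87 and 0.75, adjusted p of 0.157 and 0.149). With siARNT, RRM2B, a further ribonucleotide reductase subunit, was lower in normoxia (-0.89 ± 0.10 (adjusted p = 0.000103)) and in hypoxia (-0.68 ± 0.10 (adjusted p = 0.000261)), whereas RRM1 and RRM2 were called higher in hypoxia.

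Of 31 genes of G1/S control tested, 17 were called lower and none higher in hypoxia with siControl, against 14.9% and 10.4% of all genes. Their median was -0.29. E2F2, an activating E2F, changed by -0.85 ± 0.11 (adjusted p = 0.00022) and CDC25A, the phosphatase that activates CDK2, by -0.84 ± 0.08 (adjusted p = 1.69e-05). With siARNT 3 were called lower in hypoxia, against 1.89% of all genes. The interaction was called above 0 for 5, against 2.49% of all genes. Among the 5 were E2F2 (0.63 ± 0.16 (adjusted p = 0.0443)), CDC25A (0.58 ± 0.11 (adjusted p = 0.0122)) and E2F7 (0.53 ± 0.12 (adjusted p = 0.0297)). In siARNT against siControl, 14 were called higher and 5 lower in hypoxia, against 14.4% and 14.7% of all genes. The count called lower is near that share. CDK6, a kinase of the cyclin D step, was lower at both oxygen levels, by -0.77 ± 0.09 (adjusted p = 0.000174) in normoxia and -0.79 ± 0.09 (adjusted p = 5.22e-05) in hypoxia. MYBL2, a transcription factor that is itself an E2F target, was higher by 1.10 ± 0.26 (adjusted p = 0.0138) in normoxia and 0.96 ± 0.26 (adjusted p = 0.0162) in hypoxia, and E2F7, a repressor E2F, by 0.86 ± 0.09 (adjusted p = 1.88e-05) in hypoxia. Without normoxia siARNT B, MYBL2 was higher by 0.74 (adjusted p = 0.024) in normoxia, and its call there ended without normoxia siControl A or C (adjusted p of 0.0617 and 0.0594). Without hypoxia siARNT C it was higher by 0.77 in hypoxia, which did not pass (adjusted p = 0.0608), and its call there also ended without hypoxia siControl A or C (0.0619 and 0.0585). The interactions of E2F2 (0.66, adjusted p = 0.0759) and E2F7 (0.50, adjusted p = 0.0732) did not pass without hypoxia siControl B.

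Of 33 mitosis and G2/M genes, 24 were called lower and 1 higher in hypoxia with siControl, against 14.9% and 10.4% of all genes. Their median was -0.39, which was nearer to 0 than the -0.66 of the 40 genes, and this difference was not tested. BUB1, a kinase of the spindle checkpoint, changed by -0.65 ± 0.08 (adjusted p = 0.000187) and KIF23, a motor of cytokinesis, by -0.61 ± 0.09 (adjusted p = 0.000372). With siARNT 3 were called lower in hypoxia, against 1.89% of all genes. The interaction was called for 1 gene, KIF23 (0.56 ± 0.12 (adjusted p = 0.0257)), near the 2.49% of all genes called above 0. The median interaction was 0.27. Without hypoxia siControl B the interaction of KIF23 was 0.49 (adjusted p = 0.0556) and did not pass. In siARNT against siControl at 1% O2, 14 were called higher and none lower, against 14.4% and 14.7% of all genes, with a median of 0.22.

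Splicing was read from deposited event files, which hold 121 events of the list's genes. With at least 20 reads over both forms in every library, 87 events in 29 genes were tested with limma, among 40169 events in all. None of the 87 was called in any of the 5 comparisons, against 0.0398% of all events for hypoxia with siControl, 0.0498% for hypoxia with siARNT, 0.0249% for siARNT in normoxia, 0.0448% for siARNT in hypoxia and 0.0498% for the interaction. At an unadjusted p under 0.05 there were 5, 6, 8, 8 and 6 of the 87 (5.7, 6.9, 9.2, 9.2 and 6.9%), near the 5.9, 6.7, 6.6, 8.0 and 4.9% of all events. An alternative 3′ splice site of RFC2, chosen after its values were seen, had the inclusion form in a fraction of 0.62, 0.52 and 0.59 of reads in normoxia siControl and 0.80, 0.89 and 0.86 in normoxia siARNT (adjusted p = 0.354), at a mean of 37.9 reads a library. At 1% O2 its groups overlapped, at 0.65, 0.80 and 0.60 with siControl and 0.62, 0.75 and 0.78 with siARNT (adjusted p = 0.962). A skipped exon of RFC5, also chosen after its values were seen, stood at 0.21, 0.25 and 0.27 in normoxia siControl and at 0.05, 0.07 and 0.10 in normoxia siARNT (adjusted p = 0.569). In hypoxia siARNT it stood at 0.27, 0.06 and 0.11, so that library A lay with the siControl libraries. At this depth, differences of this size did not pass the adjusted test.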

How the data were processed

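Poly(A) RNA of 12 samples was measured. Trimmomatic, STAR 2.4.2a and the build GRCh38.p10 are listed in the submitters' processing notes. The deposited gene files hold counts, whole numbers of reads per gene ID, and the counter's settings and annotation are not given in the sources used here. Reads that the counter did not assign to a gene, for whatever reason (22.71 to 25.2%), were left out of library sizes. The deposited event files give counts of reads per junction, read coverage (signal) of retained introns and, per the file headers, the fraction of the inclusion form. Neither their caller nor their build is stated. The fraction recomputed from the deposited values matched within 0.01 in 100% of cases.

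Symbols were paired with 51996 of 57820 gene IDs. Counts were fitted with edgeR 4.0.16 (R 4.3.3) by TMM scaling, filterByExpr and a robust quasi-likelihood fit of all 12 samples with 1 mean per group, and p-values were adjusted by Benjamini-Hochberg within each of 5 comparisons. Errors after ± are SE for log2 fold changes. Exon lengths, GC content (97.3% of genes tested) and overlaps come from GENCODE 29. Events were tested with limma 3.58.1 on log2 ratios of the forms (0.5 added to each, and at least 1 read of each form over all samples). The GC correction takes a spline of 5 degrees of freedom per library as an offset. Both tests were run on simulated data into which changes had been put. The simulated spread was even and had no GC trend between libraries, so these runs cannot check calls against such trends. Library medians use log2 of CPM plus 0.1.

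Groups and letters come from sample titles. The labels give wells in triplicate and do not say whether letters are separate cultures, so p-values measure the spread between these samples. Within groups, each pair of libraries differed beyond counting noise (chi-square over its degrees of freedom, 4.3 to 89.11). The main fits took no letters as pairs. The alternative block by letter was 1 shared term over all 4 groups. The alternative block by well paired letters between oxygen levels for both siRNAs. Deviations from group means were correlated between libraries of 1 letter at 0.51, 0.74 and 0.50 for normoxia and hypoxia with siControl. For siControl and siARNT in normoxia these correlations were 0.70, 0.88 and 0.38. In normoxia some unlike letters were correlated as highly (0.76 for siControl A with siARNT C and 0.49 for siControl C with siARNT A), so the correlations alone do not show the pairing. Libraries of 1 letter were correlated at 0.91, -0.12 and -0.85 between oxygen levels with siARNT and at 0.68, -0.09 and -0.72 between siRNAs in hypoxia. Normoxia siARNT B and hypoxia siARNT C, of unlike letters, were correlated at 0.93. The blocks may therefore not follow the pairing of the hypoxia siARNT libraries.

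The members of the list and the comparison lists were chosen with earlier results of these data known. Named with values are the called genes of each role with the largest changes (at most 2 per role and comparison), the genes that did not pass, and at most 3 called genes of each other list. Alternatives were other scalings (RLE, total count), no filter, DESeq2 1.42.0, replicate blocks, the GC correction, fits of only the groups compared, and leaving out each library.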

Additional observations from a re-analysis of the deposited data

Results flagged for a closer look

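For 20 genes of the list the hypoxia change differed between siARNT and siControl in edgeR's interaction test, each with a higher value under siARNT. The differences on the log2 scale were 0.74 for CCNE2 and MCM10, 0.73 for POLE2, 0.62 for MCM6, 0.58 for CDC45, 0.57 for PCNA, 0.56 for RFC4, 0.55 for TYMS and RRM1, 0.53 for GINS4 and 0.52 for ORC6. They were 0.51 for POLA2, CDC6 and RRM2, 0.49 for MCM4, 0.47 for FEN1, 0.40 for MCM3, 0.38 for GINS1, 0.35 for RPA2 and 0.32 for RFC5. Adjusted p-values of these genes ran from 0.000478 (MCM10) to 0.0466 (RPA2). Of the 20, 7 kept the call under every alternative tried and none changed sign. With the GC correction the difference for GINS1 was 0.19 (adjusted p = 0.203) and for RFC5 0.16 (adjusted p = 0.147), and neither passed. The GC trend of the libraries moved with the interaction, whose median over the 40 genes was 0.44 without the GC correction and 0.34 with it.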

How the results depend on the processing

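Of the calls made for genes of the list, 31 of 33 (hypoxia with siControl), 0 of 13 (hypoxia with siARNT), 4 of 17 (siARNT in normoxia), 27 of 33 (siARNT in hypoxia) and 7 of 20 (interaction) held under every alternative, and none reversed. Medians over the 40 genes ran from -0.70 to -0.61, -0.29 to -0.19, 0.17 to 0.29, 0.57 to 0.67 and 0.34 to 0.49. For hypoxia with siARNT the count of 13 became 6 with no filter, 27 with the GC correction, 29 with the GC correction and the replicate block by letter, 1 with the replicate block by well, 0 in a fit of only the groups compared (edgeR, with 19 at an unadjusted p under 0.05; DESeq2 on all libraries called 15) and 1 to 6 without 1 library. For siARNT in normoxia 17 became 9 with no filter, 29 with the GC correction, 29 with the correction and the letter block, 22 with the letter block alone and 4 to 17 without 1 library. For the interaction 20 became 12 with no filter, 12 with the well block, 29 with total count scaling and 7 to 25 without 1 library. The letter block added MCM2 for hypoxia with siControl, LIG1 for siARNT in hypoxia and POLA1 and CCNE1 for the interaction. Called events of the list stayed at 0 but for 1 without hypoxia siARNT C (hypoxia with siARNT) and 1 without hypoxia siControl A (siARNT in hypoxia), a range of 0 to 1. CDT1 for hypoxia with siControl turned to -0.16 with the GC correction, alone or with the letter block, and ran from -0.15 to 0.30 without 1 library, while POLD1 ran from -0.51 to 0.12. For siARNT in hypoxia CDT1 ran from -0.04 to 0.47 without 1 library, and CCNE1 was 0.03 with total count scaling, which put the median of all genes at 0.10. The other lists moved too: with the GC correction, counts for hypoxia with siARNT rose from 2 to 22 (other replication genes), 3 to 13 (G1/S control) and 3 to 14 (mitosis and G2/M), and those of the interaction from 11 to 22, 5 to 10 and 1 to 10. Over all genes the share called also rose, from 4.09% to 20% for hypoxia with siARNT and from 4.69% to 16.2% for the interaction. The cause of these shifts was not tested. CDT1 and POLD1, the genes of lowest level, had the widest errors.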
